A study of Mus musculus with 24 samples.

Results

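Messenger RNA of 10 genes that mark the switch from an epithelial to a neural pattern of cell adhesion was followed through differentiation of mouse embryonic stem cells (mESCs) with and without SmcHD1. The genes were the classical cadherins Cdh1 and Cdh2, the epithelial surface protein Epcam, the claudins Cldn4, Cldn6 and Cldn7, the polarity protein Crb3, the keratin Krt8 and the repressors Zeb1 and Zeb2. They were taken by name from a table of 23119 genes, and all 10 were among the 12105 genes outside the X and Y chromosomes that had a mean of at least 1 FPKM (a measure of RNA level corrected for the length of the transcript and the number of mapped reads) and were tested.

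Libraries came from the female hybrid mESC line JB4/EI7HZ2, which carries a JF1 and a B6 set of chromosomes and was grown under G418 and Zeocin to keep both X chromosomes. Wild-type (WT) cells were compared with an SmcHD1-mutant line (KO) made from them with a CRISPR guide against the ATPase domain. SmcHD1 is a chromatin protein that maintains silencing on the inactive X chromosome and at some autosomal clusters. Each genotype was sampled in 4 states with 3 libraries each, 24 in all. The states were mESCs in serum with 2i/LIF, embryoid bodies after 7 and 9 days of neuroectoderm differentiation, and neural stem cells (NSCs). The NSCs were derived from mESCs by a separate protocol and kept in FGF2 and EGF. Each genotype was 1 line, so an effect of the mutation and a difference between lines cannot be told apart, and the p-values below measure the spread between repeated cultures. These were bulk samples, in which fewer cells of a type and less RNA per cell cannot be told apart either.

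E-cadherin, the product of Cdh1, and N-cadherin, the product of Cdh2, each join cells that carry the same protein. When epiblast turns into neural plate, cells exchange the former for the latter, and the same exchange is a hallmark of epithelial-mesenchymal transition. Claudins seal tight junctions, Crb3 sets up the apical membrane above them, and Krt8 pairs with Krt18 in the filaments of simple epithelia. Zeb1 and Zeb2 are zinc finger repressors that bind paired E-boxes in the promoters of epithelial genes such as Cdh1.

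Zeb proteins bind the E-box letters CAGGTG, so the promoters of the members were searched for them to show where such letters stand. RefSeq windows on build GRCm38.p6 were found for 7 of the 10 members; Cdh1, Cdh2 and Zeb1 had none. Letters were sought in the 250 bases before each gene start, on both strands (CAGGTG, or CACCTG where the motif lies on the other strand). Of 32851 windows in the table, 17.22% held it, and of the 12 windows of members 7 did. All 6 epithelial members with a window held it in at least 1 of their windows, and none of the 4 windows of Zeb2 did. The share over all windows counts windows and not genes, so no like share stands beside the count of members. Both windows of Crb3 overlap and hold the same 3 matches, and some windows of Zeb2 overlap too. Windows of 5 of these genes are printed to show where the letters lie, each 5′ to 3′ on the strand of its gene with matches in capitals. The window of Epcam is chr17:87635729-87635978 (plus strand), with matches whose first letters lie 187 and 19 bases before the gene start. The others are chr5:134946935-134947184 (minus strand) for Cldn4, with a match at 14 bases, and chr17:23679115-23679364 (plus strand) for Cldn6, with a match at 93 bases. Crb3 and Krt8 are shown at chr17:57061951-57062200 (plus strand), with matches at 118, 63 and 7 bases, and chr15:102004343-102004592 (minus strand), with a match at 111 bases. A match is a run of letters and was not tested as a binding site.
Epcam: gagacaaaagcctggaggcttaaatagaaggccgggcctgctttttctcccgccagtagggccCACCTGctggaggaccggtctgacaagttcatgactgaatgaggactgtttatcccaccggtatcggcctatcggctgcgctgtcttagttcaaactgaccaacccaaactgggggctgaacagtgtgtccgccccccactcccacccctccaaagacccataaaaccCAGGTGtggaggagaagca
Cldn4: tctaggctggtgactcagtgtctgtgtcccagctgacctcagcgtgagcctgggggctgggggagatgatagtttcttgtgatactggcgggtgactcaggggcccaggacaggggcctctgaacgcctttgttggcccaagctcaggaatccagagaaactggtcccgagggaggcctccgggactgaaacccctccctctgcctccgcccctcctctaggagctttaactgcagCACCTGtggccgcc
Cldn6: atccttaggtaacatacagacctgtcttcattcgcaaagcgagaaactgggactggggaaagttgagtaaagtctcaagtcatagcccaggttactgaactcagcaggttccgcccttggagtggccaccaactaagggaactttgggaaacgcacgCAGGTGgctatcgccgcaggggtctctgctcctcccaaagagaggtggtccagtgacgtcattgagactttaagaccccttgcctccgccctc
Crb3: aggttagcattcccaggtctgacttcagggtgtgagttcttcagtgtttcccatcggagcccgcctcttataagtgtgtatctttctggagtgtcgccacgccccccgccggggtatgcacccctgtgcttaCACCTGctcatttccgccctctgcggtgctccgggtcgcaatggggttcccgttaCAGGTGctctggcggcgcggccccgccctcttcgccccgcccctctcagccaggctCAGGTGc
Krt8: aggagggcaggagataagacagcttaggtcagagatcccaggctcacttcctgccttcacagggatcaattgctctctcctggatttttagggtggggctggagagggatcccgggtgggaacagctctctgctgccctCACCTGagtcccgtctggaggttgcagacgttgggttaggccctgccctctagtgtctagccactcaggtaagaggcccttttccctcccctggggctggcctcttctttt

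Depth and labels were checked over the series. Steps of whole reads in low genes put the number of reads of the 24 libraries within 1.422-fold of each other, with 95.26% of low values within 0.05 of a whole number of reads. The smallest value of each gene set its step and counts as whole, and the depths came from the same values. This share is therefore no independent check of depth. Smchd1 itself lay between 12.96 and 26.4 FPKM in the 12 WT libraries and between 1.82 and 4.40 FPKM in the 12 KO libraries, and was lower in KO at every stage (limma, adjusted p from 8.96e-11 to 2.82e-09). Of the 8 pluripotency markers, the summed level was 2477 to 3002 FPKM in mESCs and 11.54 to 23.4 FPKM in NSCs, with Zfp42 at 0 in all 6 NSC libraries. The 7 neural markers summed to 323.6 to 335.7 FPKM in mESCs and, in NSCs, to 4219 to 5973 FPKM in WT and 3255 to 4045 FPKM in KO, without overlap. Most of the NSC sums was Fabp7, with means of 3862 and 2800 FPKM, which was not called between genotypes (limma, adjusted p = 0.349). In KO NSCs Nes, Pax6 and Sox2 also had lower means, and Sox1, Olig2 and Slc1a3 higher ones.

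Cdh1 fell and Cdh2 rose between mESCs and day 7 in both genotypes. Cdh1 (mm9, chr8:109127268-109194146, plus strand, up to 17 exons) stood at 81.5, 73.1 and 69.5 FPKM in the WT mESC libraries, at 38.9, 41.7 and 38.8 FPKM at day 7, at 10.3, 17.6 and 16.7 FPKM at day 9 and at 0, 0.0424 and 0 FPKM in NSCs. No library of a later WT state reached the level of an earlier one. In KO cells the libraries read 64.8, 67.8 and 75.5 FPKM in mESCs, 30.4, 21.9 and 19.5 FPKM at day 7, 10.4, 6.21 and 8.40 FPKM at day 9 and 0.0497, 0.0444 and 0 FPKM in NSCs. The NSC values were steps of 1 read or none, so Cdh1 was at the limit of detection there. From mESCs, the level of Cdh1 was 1.88-fold lower at day 7 and 5.03-fold lower at day 9 in WT cells (ratio of means). On the log2(FPKM + 1) scale the WT difference was -0.89 ± 0.17 (SE) at day 7, -2.29 ± 0.17 at day 9 and -6.22 ± 0.17 in NSCs (limma, adjusted p = 1.64e-04, 1.42e-10 and 4.79e-18).

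Cdh2 (mm9, chr18:16747386-16967558, minus strand, up to 16 exons) made most of its rise by day 7. WT libraries read 7.69, 9.63 and 10.03 FPKM in mESCs, 81.5, 87.4 and 74.8 FPKM at day 7, 81.6, 81.2 and 76.3 FPKM at day 9 and 84.3, 54.6 and 59.6 FPKM in NSCs. The day 7 mean was 8.91-fold that of mESCs, a log2 difference of 3.03 ± 0.13 (SE; limma, adjusted p = 1.59e-14), whereas day 9 and day 7 of WT cells differed by -0.03 ± 0.13 (adjusted p = 0.907). KO libraries held 10.3, 10.8 and 12.4 FPKM in mESCs, 68.5, 80.2 and 75.2 FPKM at day 7, 89.7, 96.9 and 99.98 FPKM at day 9 and 60.4, 55.97 and 56.5 FPKM in NSCs. In KO, day 9 was above day 7 (0.35 ± 0.13, limma, adjusted p = 0.0369) and NSCs were below day 9 (-0.72 ± 0.13, adjusted p = 4.13e-05). The former call was lost without KO day 7 replicate 1 (0.141) or 3 (0.0735), without KO day 9 replicate 2 (0.0912) or 3 (0.116), and with a replicate block (0.0577). In WT, NSCs against day 9 gave -0.29 ± 0.13 (adjusted p = 0.0555), which was -0.47 without WT NSC replicate 1 (adjusted p = 6.94e-04) and was called under median ratio scaling (0.0356). Day 9 KO libraries were the highest of the series, above all others, yet the KO difference from WT at day 9 of 0.26 ± 0.13 missed the threshold (adjusted p = 0.298). It passed where the fit held only the 6 libraries of that day (adjusted p = 0.0384).

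Taking the share of Cdh1 in the sum of Cdh1 and Cdh2 FPKM as a description of the exchange, mESC libraries held 85.9% to 91.4% Cdh1, day 7 libraries 20.6% to 34.2%, day 9 libraries 6.02% to 18.0% and NSC libraries at most 0.082%. At day 7 WT libraries held 32.3%, 32.3% and 34.2% and KO libraries 30.8%, 21.4% and 20.6%. At day 9 WT held 11.2%, 17.8% and 18.0% and KO 10.4%, 6.02% and 7.75%. The KO share was below the WT share in every library of mESCs, day 7 and day 9, although WT replicate 1 and KO replicate 1 of day 9 were close neighbours.

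**Figure D1:**
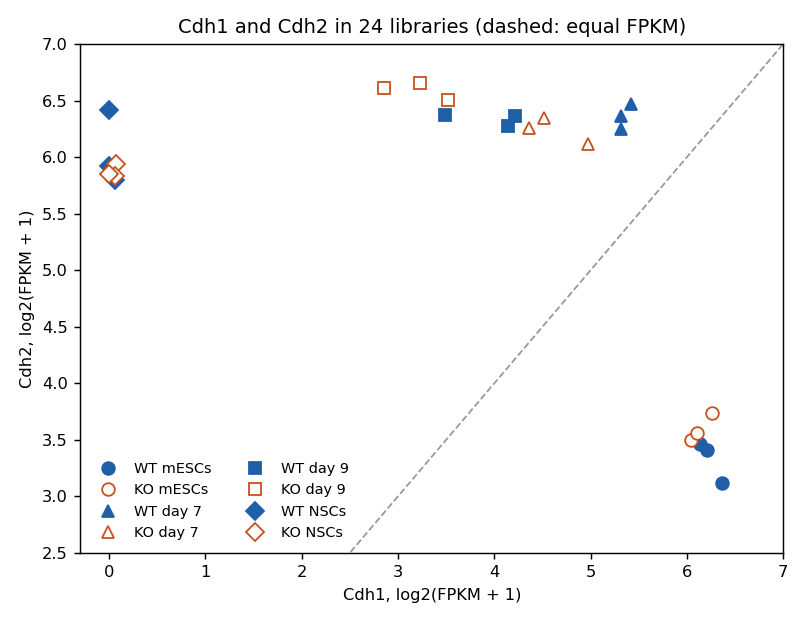
Each point is a library, with Cdh1 on the horizontal and Cdh2 on the vertical axis, both as log2(FPKM + 1), filled blue for WT and open orange for KO; the dashed line marks equal FPKM. The 6 mESC libraries lie below the line and the 18 others above it, and Cdh1 continues to fall from day 7 to NSCs while Cdh2 stays between 54.6 and 99.98 FPKM.

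Epcam, a homophilic adhesion protein of epithelia and mESCs, followed Cdh1 down. Epcam (mm9, chr17:88035319-88050467, plus strand) read 81.6, 78.7 and 65.3 FPKM in WT mESCs, 34.4, 27.1 and 31.1 FPKM at day 7, 9.49, 11.7 and 12.3 FPKM at day 9 and 0 or 1 read per library in NSCs. Its fall from mESCs was 2.43-fold at day 7 and 6.74-fold at day 9 in WT cells (limma, adjusted p = 3.79e-06 and 2.14e-11). KO libraries held 131, 107 and 145 FPKM in mESCs, 37.3, 29.7 and 25.8 FPKM at day 7 and 13.4, 6.52 and 9.82 FPKM at day 9. All 3 KO mESC libraries lay above all 3 WT ones, whereas at days 7 and 9 the genotypes overlapped.

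Claudins, Crb3 and Krt8 took another course: low or moderate in mESCs, highest at day 7, lower at day 9 and at or near 0 in NSCs. Krt8 (mm9, chr15:101827142-101834773, minus strand, up to 9 exons) moved most. WT libraries read 2.87, 4.98 and 2.52 FPKM in mESCs, 162.1, 282.4 and 317.0 FPKM at day 7, 78.98, 114.4 and 112.3 FPKM at day 9 and 0.119, 0 and 0 FPKM in NSCs. The rise from mESCs to day 7 in WT was 73.4-fold (log2 difference 5.82 ± 0.24, limma, adjusted p = 1.75e-14). KO libraries held 1.48, 1.15 and 1.03 FPKM in mESCs, a depth of 7 to 11 reads, and 89.3, 50.1 and 61.5 FPKM at day 7, 51.5, 32.5 and 41.1 FPKM at day 9 and at most 1 read in NSCs. Every WT library of day 7 and of day 9 lay above every KO library of the same day.

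Cldn6, a claudin of early embryonic epithelia, spread widely among WT libraries. Cldn6 (mm9, chr17:23816332-23819414, plus strand) read 16.6, 7.38 and 7.97 FPKM in WT mESCs, 27.5, 55.6 and 63.9 FPKM at day 7 and 11.9, 36.6 and 29.8 FPKM at day 9. In KO it read 5.63, 2.05 and 4.51 FPKM in mESCs, 18.0, 10.2 and 11.9 FPKM at day 7 and 6.33, 7.00 and 7.00 FPKM at day 9. It was listed at 0 in all 6 NSC libraries, and at each of the other 3 states no KO library reached the lowest WT one.

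Cldn7 and Crb3 were expressed at lower levels and rest on few reads. Cldn7 (mm9, chr11:69778281-69781388, plus strand) read 1.95, 2.34 and 1.35 FPKM in WT mESCs (8, 9 and 5 reads as estimated from its steps), 9.36, 9.50 and 10.6 FPKM at day 7 and 3.27, 5.85 and 6.13 FPKM at day 9. KO libraries of Cldn7 held 0.824, 0.522 and 0.900 FPKM in mESCs (3, 2 and 3 reads), 8.37, 5.02 and 5.80 FPKM at day 7 and 2.74, 1.11 and 1.73 FPKM at day 9. At all 3 states the WT libraries of Cldn7 stood above the KO ones without overlap.

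Crb3 (mm9, chr17:57201700-57205337, plus strand) read 3.62, 1.07 and 1.11 FPKM in WT mESCs, 6.25, 7.44 and 11.7 FPKM at day 7 and 3.23, 5.70 and 5.80 FPKM at day 9. KO libraries of Crb3 held 1.81, 0.862 and 0.988 FPKM in mESCs, 7.12, 3.49 and 2.83 FPKM at day 7 and 1.88, 1.84 and 1.02 FPKM at day 9, the last 3 being 10, 10 and 5 reads. Its libraries overlapped between genotypes in mESCs and at day 7 and were apart at day 9.

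Cldn4, a sealing claudin, differed least from mESCs among the epithelial members at day 7 and day 9 in WT. Cldn4 (mm9, chr5:135420993-135422804, minus strand, a gene of 1 exon) read 26.9, 12.7 and 16.6 FPKM in WT mESCs, 25.3, 23.0 and 28.6 FPKM at day 7, 13.4, 15.0 and 17.4 FPKM at day 9 and 0 in all 3 NSC libraries. KO libraries held 13.7, 8.81 and 14.2 FPKM, 24.9, 15.4 and 17.5 FPKM and 10.4, 4.47 and 9.29 FPKM in the same first 3 states. Day 7 against mESCs was 0.49 ± 0.25 in WT (adjusted p = 0.0993) and 0.61 ± 0.25 in KO (limma, adjusted p = 0.0388), and the KO call was lost without KO mESC replicate 2 (adjusted p = 0.201), without KO day 7 replicate 1 (0.192) or without KO day 7 replicate 3 (0.0548), at a pseudocount of 0.1 (0.0860) and with no filter on low values (0.0540). Day 9 against mESCs in KO was -0.59 ± 0.25 (limma, adjusted p = 0.03998). This call was lost at a pseudocount of 0.1 (0.0758), with no filter (0.0549), at the same sum of FPKM (0.238), under median ratio scaling (0.0797) and with the compared groups alone (0.111). It was also lost without KO mESC replicate 1 (0.122) or 3 (0.140) or KO day 9 replicate 2 (0.333).

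The repressors rose on different schedules. Zeb1 (mm9, chr18:5491499-5775466, plus strand, with the entry Gm10125 on the same span) read 5.31, 7.67 and 8.06 FPKM in WT mESCs and 113.1, 97.8 and 99.7 FPKM in WT NSCs, with group means of 10.3 ± 0.17 FPKM (SD, n = 3) at day 7 and 29.7 ± 0.45 FPKM at day 9. Its rise from mESCs was 1.47-fold at day 7, 4.24-fold at day 9 and 14.8-fold in NSCs (limma, adjusted p = 4.54e-04, 1.00e-12 and 1.16e-17). KO means were 7.06 ± 0.38 FPKM in mESCs, 9.29 ± 0.80 FPKM at day 7, 20.6 ± 0.96 FPKM at day 9 and 107.0 ± 8.7 FPKM in NSCs. At day 9 the WT libraries (29.7, 30.2 and 29.3 FPKM) all stood above the KO libraries (19.9, 21.7 and 20.2 FPKM).

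Zeb2 (mm9, chr2:44839154-44969604, minus strand, in a row that also names Mir5129 and with the entry Gm13476 on the same span) was at 0 to 2 reads in every mESC library of either genotype. WT libraries then read 10.2, 8.76 and 7.34 FPKM at day 7, 13.4, 11.7 and 11.998 FPKM at day 9 and 6.72, 12.3 and 9.18 FPKM in NSCs. Most of its rise was reached by day 7 (log2 difference from mESCs 3.26 ± 0.15, limma, adjusted p = 1.15e-13), as for Cdh2, whereas Zeb1 rose by a further 1.76 ± 0.11 from WT day 9 to NSCs (adjusted p = 1.13e-11) after a log2 difference of 1.96 ± 0.11 between mESCs and day 9. KO libraries held 8.87, 10.2 and 10.7 FPKM at day 7, 13.0, 14.9 and 15.7 FPKM at day 9 and 6.97, 8.21 and 7.64 FPKM in NSCs, and overlapped the WT libraries at every stage. Zeb2 was higher at day 9 than at day 7 in WT (0.46 ± 0.15, limma, adjusted p = 0.0246) and KO (0.51 ± 0.15, adjusted p = 0.0154), and lower in NSCs than at day 9 in WT (-0.40 ± 0.15, adjusted p = 0.0324) and KO (-0.85 ± 0.15, adjusted p = 5.66e-05). The WT rise was lost without WT day 7 replicate 2 (0.0562) or 3 (0.125) or WT day 9 replicate 1 (0.0914), and the KO rise without KO day 7 replicate 1 (0.0720) or KO day 9 replicate 3 (0.0692). The WT fall was lost without WT day 9 replicate 1 (0.109) or 3 (0.0567) or WT NSC replicate 1 (0.239) or 3 (0.0633), at the same sum of FPKM (0.128) and with the compared groups alone (0.147). At a pseudocount of 0.1 the WT rise (0.0731), the KO rise (0.0548) and the WT fall (0.0840) were not called. How reads of overlapping entries were assigned is not given in the sources used here, so the levels of Zeb1 and Zeb2 may hold or lack reads of these neighbours.

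**Figure D2:**
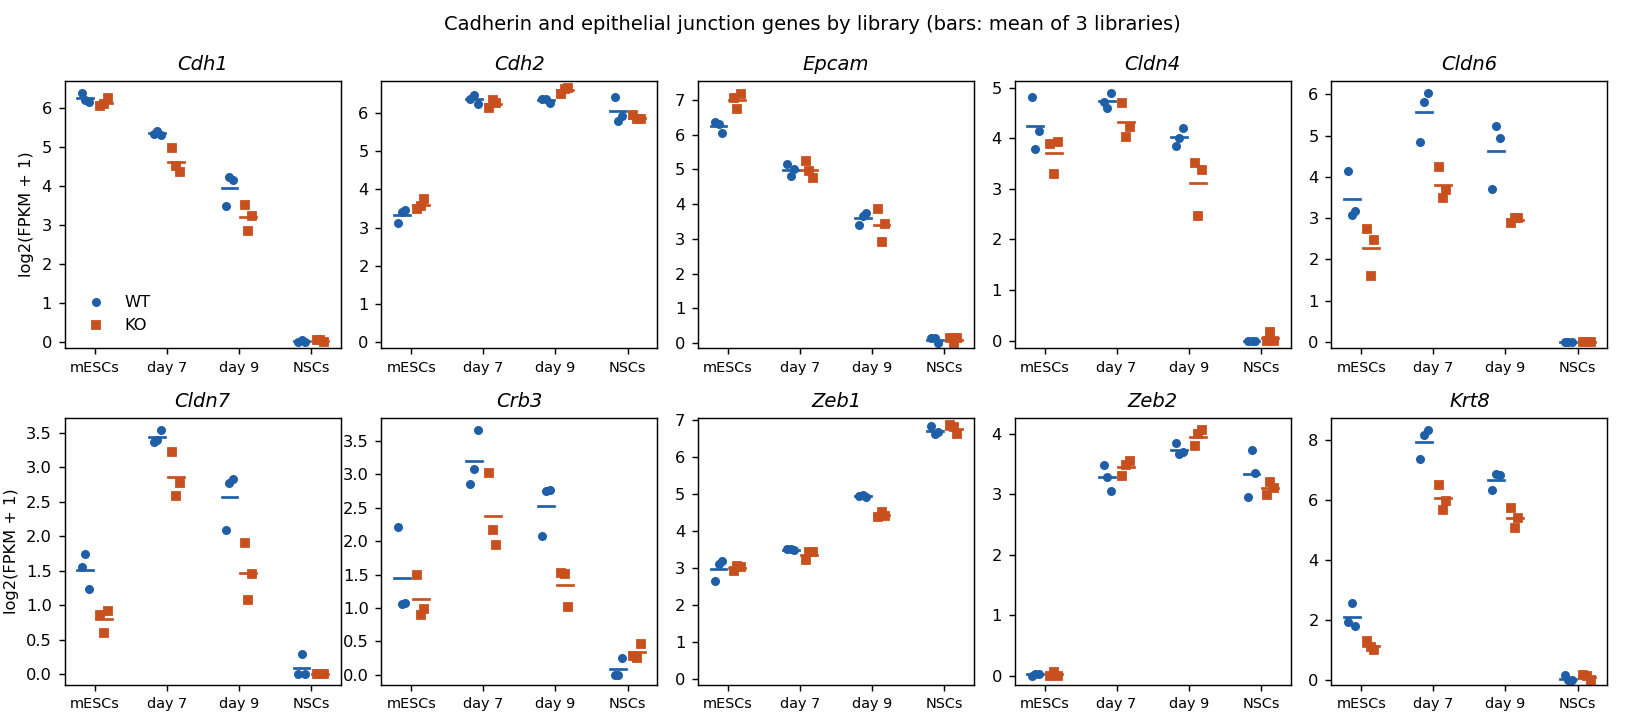
Each panel shows 1 gene as log2(FPKM + 1) against state, with WT libraries as blue circles, KO libraries as orange squares and horizontal bars for the mean of 3 libraries. Cdh1 and Epcam step down through the states, Zeb1 steps up, Cdh2 and Zeb2 move less after day 7 than before it, and Cldn6, Cldn7, Crb3 and Krt8 peak at day 7 with WT above KO at day 9.

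Against mESCs, the members called higher and lower were 7 and 2 of 10 in WT at day 7, where 29.1% and 30.2% of all tested genes were called so. At day 9 they were 7 and 2 (all genes 36.4% and 35.1%), and in NSCs 3 and 7 (36.9% and 38.3%). The 3 that were higher in NSCs were Cdh2, Zeb1 and Zeb2, and the 7 lower were the epithelial members. In KO cells 8 members were higher and 2 lower at day 7 (all genes 29.5% and 31.8%), 5 and 3 at day 9 (35.7% and 35.6%; Cldn4, 1 of the 3, lost its call in 8 of 12 alternatives), and 3 and 7 in NSCs (37.7% and 38.2%), the same genes in NSCs as in WT. The median log2 difference of the 10 was 1.84 at day 7, 1.13 at day 9 and -1.74 in NSCs for WT, beside -0.02, 0.01 and -0.01 over all tested genes.

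From day 7 to day 9, 2 members rose and 5 fell in WT (all genes 18.5% and 15.3%), and 3 rose and 6 fell in KO (17.2% and 13.4%). From day 9 to NSCs, which is a step between protocols, 1 rose and 8 fell in WT (24.8% and 30.3%), and 1 rose and 9 fell in KO (27.2% and 32.4%). Zeb1 was the gene that rose in that step in either genotype. Several of the smaller steps between day 7 and day 9 rested on 1 library, and in KO the count of 9 was 5 without KO day 7 replicate 1 or without KO day 9 replicate 3. The rise of Cldn6 from mESCs to day 9 in WT was not called without WT day 9 replicate 2 (limma, adjusted p = 0.0551), nor that of Cldn7 in KO without KO day 9 replicate 1 (0.0717), and the fall of Crb3 to KO NSCs was not called without KO mESC replicate 1 (0.107), KO NSC replicate 1 (0.0521) or KO NSC replicate 2 (0.0567).

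Scaling every library to the same sum of FPKM moved the median of all genes by over 0.1 on the log2 scale in most comparisons between states, to 0.37 in WT and 0.44 in KO for NSCs against mESCs. The share of higher among all calls grew with it. For WT against mESCs it was 49.1% before and 66.7% after scaling at day 7, with 50.9% and 69.5% for day 9 and 49.1% and 66.7% for NSCs. For KO the same pairs were 48.1% and 63.6%, 50.1% and 64.3%, and 49.7% and 68.7%. Day 9 against day 7 gave 54.6% and 72.5% in WT. NSCs against day 9 gave 45.6% and 61.9% in KO. Against mESCs, Cldn4 of WT day 7 was called under that scaling (adjusted p = 0.0178), as was Cldn6 of KO day 9 (0.0282), while Cldn4 of KO day 9 (0.238) and Crb3 of KO NSCs (0.0658) lost their calls and the other members kept theirs.

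In KO against WT, a few epithelial members were lower at day 7 and most of them at day 9, and neither mESCs nor NSCs gave a call. At day 7, 3 members were lower and 0 higher, beside 2.5% and 1.18% of all tested genes. They were Krt8, 3.79-fold lower (log2 difference -1.89 ± 0.24, adjusted p = 3.60e-05), Cldn6, 3.66-fold lower (-1.75 ± 0.36, adjusted p = 0.00587), and Cdh1, 1.66-fold lower (-0.73 ± 0.17, adjusted p = 0.0154; limma throughout). The Krt8 call held under all 12 alternatives. Cdh1 lost its call without WT day 7 replicate 2 (adjusted p = 0.0802), WT day 7 replicate 3 (0.0525), KO day 7 replicate 2 (0.0718) or KO day 7 replicate 3 (0.126) at a pseudocount of 0.1 (0.0748) and with a replicate block (0.0548). Cldn6 lost its call without WT day 7 replicate 3 (0.0519) and with the 6 libraries of the day alone (0.0534).

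At day 9, 7 members were lower and 0 higher, beside 4.11% and 2.58% of all tested genes (38.6% of calls higher, or 22.4% with libraries at the same sum of FPKM), and the median difference over the 10 was -0.83 beside 0 over all genes. Cldn6 was 3.85-fold lower (log2 difference -1.67 ± 0.36, limma, adjusted p = 0.00586), Crb3 3.11-fold (-1.18 ± 0.30, 0.0182), Cldn7 2.73-fold (-1.09 ± 0.22, 0.00214), Krt8 2.44-fold (-1.27 ± 0.24, 0.00141), Cldn4 1.90-fold (-0.91 ± 0.25, 0.0285), Cdh1 1.78-fold (-0.75 ± 0.17, 0.00858) and Zeb1 1.44-fold (-0.51 ± 0.11, 0.00504). The repressor Zeb1 was thus lower in the same libraries as 6 epithelial genes, while Epcam (-0.20 ± 0.18, adjusted p = 0.677), Cdh2 and Zeb2 (0.22 ± 0.15, adjusted p = 0.544) gave no call.

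The calls of Krt8, Cldn7 and Zeb1 at day 9 held in all 12 alternatives, with adjusted p of at most 0.0418 in limma. Cdh1, Cldn4, Cldn6 and Crb3 depended on the libraries: without WT day 9 replicate 2 none of the 4 was called (adjusted p from 0.0557 to 0.101), which left 3 members. Without WT day 9 replicate 3 Cdh1, Cldn4 and Crb3 were not called (0.0647, 0.1298 and 0.0952). Cdh1 and Cldn4 were not called without KO day 9 replicate 2 (0.0725 and 0.211), nor Crb3 without KO day 9 replicate 3 (0.0964). With the 6 libraries of day 9 alone Cldn6 (0.0575), Cldn4 (0.0835) and Cdh1 (0.0860) were not called, and at a pseudocount of 0.1 Crb3 (0.0686) and Cldn4 (0.0912) were not.

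In mESCs no member passed the threshold in limma, beside 0.116% of genes called higher and 0.413% lower, although 6 had an unadjusted p under 0.05. Epcam was 1.70-fold higher in KO (log2 difference 0.75 ± 0.18, adjusted p = 0.0665) and Krt8 2.83-fold lower (-0.97 ± 0.24, adjusted p = 0.0797). In NSCs none passed either, beside 2.54% higher and 3.48% lower (42.2% of calls higher, or 54.8% at the same sum), and 0 had an unadjusted p under 0.05; 7 of the 10 were at or near 0 reads there, which leaves no level to compare. Cdh2, Zeb1 and Zeb2, which were expressed in NSCs, differed by -0.17 ± 0.13, 0.05 ± 0.11 and -0.24 ± 0.15.

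**Figure D3:**
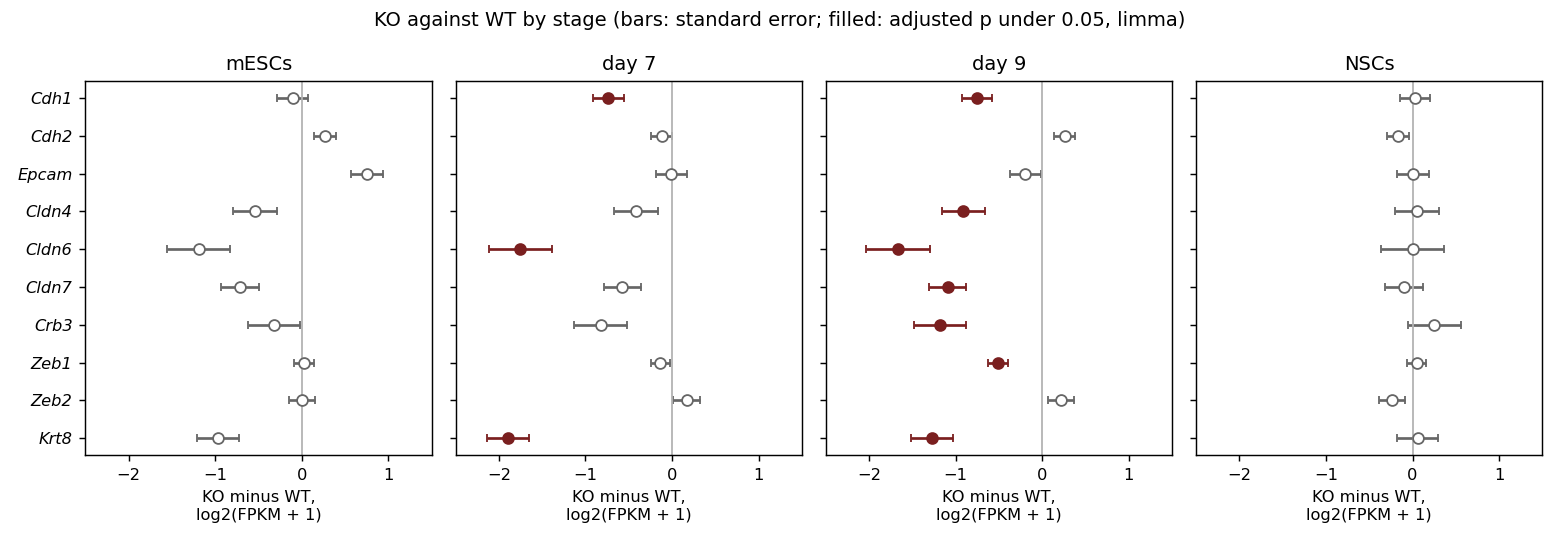
The 4 panels give the KO minus WT difference on the log2(FPKM + 1) scale for each gene at each state, with bars for the standard error and filled points for an adjusted p under 0.05 in limma. Filled points are Cdh1, Cldn6 and Krt8 at day 7 and Cdh1, Cldn4, Cldn6, Cldn7, Crb3, Zeb1 and Krt8 at day 9, all left of 0.

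An exact two-sided permutation test of single members, 3 libraries against 3, cannot give a p below 0.1. It gave 0.1 wherever the libraries of the genotypes stood apart, which was so for 5 members in mESCs (11% of all tested genes), 5 at day 7 (24%), 7 at day 9 (32.3%) and 1 among NSCs (16.7%). That 1 was Crb3, at 0, 0 and 1 read in WT and 1, 1 and 2 reads in KO, too few to compare levels. In mESCs these were Cdh2 and Epcam, higher in KO, and Cldn6, Cldn7 and Krt8, lower in KO. These last 3 were below WT without overlap in mESCs, at day 7 and at day 9.

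Whether the KO difference changed between states was tested as such. Against the KO difference in mESCs, that of day 7 gave 0 calls among the members (1.68% of all tested genes were called, and 4 members had an unadjusted p under 0.05), that of day 9 gave 1 (2.68%) and that of NSCs 0 (2.26%, and 4 members unadjusted). With libraries at the same sum, the share of higher calls was 36% instead of 49.4% for day 9 and 62.2% instead of 50.4% for NSCs. The call was Epcam, whose KO difference was 0.95 ± 0.26 lower on the log2 scale at day 9 than in mESCs (limma, adjusted p = 0.0474). It was lost at a pseudocount of 0.1 (0.324), under median ratio scaling (0.0542), with the 4 groups alone (0.111), with a replicate block (0.0686) and without any 1 of the 3 WT mESC libraries, KO mESC replicates 1 and 3, and replicates 2 and 3 of WT and of KO day 9 (0.0556 to 0.140). For the members that were lower at day 9, the test did not show that the difference was larger than in mESCs (adjusted p from 0.0796 for Zeb1 to 0.829 for Krt8). Zeb1 was the nearest to a call, and passed with a replicate block (0.0388), at the same sum of FPKM (0.0441) and without WT mESC replicate 2 (0.0486) or 3 (0.0395). Cdh1 passed without WT day 9 replicate 1 (0.0315). At day 7 Krt8 passed without WT day 7 replicate 1 (0.0474).

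Markers of other germ layers moved with these differences. At day 7, the 10 endoderm markers summed to 75.2, 250.4 and 315.9 FPKM in WT and to 2.75, 4.92 and 3.66 FPKM in KO, and all 5 that were tested were lower in KO. The 6 mesoderm markers summed to 58.6 to 156.0 FPKM in WT and 1.87 to 3.43 FPKM in KO, with both tested markers lower and Mesp1 and Msgn1 at 0 in all 3 KO libraries. At day 9 endoderm markers summed to 58.4 to 115.5 FPKM in WT and 8.69 to 34.1 FPKM in KO, where Afp and Apoa1 were at 0. Of the 5 tested then, Foxa1 and Foxa2 were lower, and Sox17 (-0.73), Spink3 (-2.26) and Cer1 (0.51) gave no call. Mesoderm markers then summed to 15.7 to 43.4 and 4.12 to 15.0 FPKM. Both tested, T (-1.80 ± 0.44, limma, adjusted p = 0.0157) and Meox1 (-2.25 ± 0.56, 0.0174), were lower in KO. Of the neural crest markers tested at day 9, Ets1 was lower (-0.78 ± 0.23, 0.0372) and the others gave no call. Tfap2b, which was not tested, had means of 0.466 FPKM in WT and 4.36 FPKM in KO. The 6 trophectoderm markers summed to 22.8 to 31.1 FPKM in WT and 11.35 to 18.95 FPKM in KO at day 7, with Cdx2 (-2.33 ± 0.20, limma, adjusted p = 1.03e-07) and Eomes (-1.05 ± 0.17, adjusted p = 6.50e-04) lower of 3 tested, and to 10.8 to 16.4 and 8.16 to 13.5 FPKM at day 9, with 0 called and 1 at an unadjusted p under 0.05. Gata3, which was not tested, had day 9 means of 2.68 FPKM in WT and 0.478 FPKM in KO. At day 9 Cdx2 and Tfap2c also had lower means in KO, and Elf5, Eomes and Hand1 higher ones. The 7 neural markers summed to 657 to 784.5 FPKM in WT and 862.8 to 986.5 FPKM in KO at day 9, with 2 higher (Sox1 and Pax6) and 2 lower (Olig2 and Slc1a3). The largest part was Fabp7, with means of 363 and 538 FPKM and no call (limma, adjusted p = 0.209). At day 7 Sox1 was higher in KO (0.72 ± 0.19, limma, adjusted p = 0.0336) and Olig2 lower (-1.39 ± 0.31, 0.0106), and the other neural markers gave no call. The pluripotency marker Fgf5 was lower at day 7 too (-0.75 ± 0.20, 0.0317). Tfap2a, the 1 surface ectoderm marker tested, was higher in KO at day 9 (1.85 ± 0.21, limma, adjusted p = 3.00e-06). The untested markers of that list had means under 1 FPKM at day 9. Of these, Trp63 (0 in KO against 0.315 to 0.615 FPKM in WT), Krt5 and Krt15 were lower in KO, and Krt14, Dlx5 and Wnt6 higher. In mESCs the trophectoderm markers summed to 36.3 to 43.7 FPKM in WT and 52.5 to 55.6 FPKM in KO, without overlap, and Cdx2 was higher in KO (1.30 ± 0.20, limma, adjusted p = 0.00149), the 1 called of 3. Cdx2 had means of 7.04 and 19.2 FPKM in WT and KO mESCs, and those of Tfap2c and Elf5 were also higher in KO. Gata3, which was not tested, was lower in KO mESCs (0.287 to 0.477 against 1.02 to 1.56 FPKM), and Eomes and Hand1 had lower means. In NSCs endoderm markers summed to at most 0.226 FPKM in WT and 2.503 to 5.75 FPKM in KO. Surface ectoderm markers summed to 0.472 to 0.626 FPKM in WT and 4.72 to 7.56 FPKM in KO. The 5 neural crest markers gave 76.6 to 92.4 FPKM in WT and 44.3 to 57.5 FPKM in KO. Most of this was Sox9 (means of 48.0 and 28.3 FPKM) and Ets1 (28.9 and 21.6 FPKM, limma, adjusted p = 0.480). Foxd3 was at 0 in all NSC libraries, and Tfap2b had means of 0.0318 and 0.0120 FPKM. The genotypes did not overlap in these endoderm, surface ectoderm and neural crest sums. Trophectoderm sums in NSCs did not overlap either, at 0.204 to 0.367 FPKM in WT and 0.524 to 1.19 FPKM in KO. Foxa1 (1.26 ± 0.30, limma, adjusted p = 0.0138) and Tfap2a (2.16 ± 0.21, 8.98e-07) were higher in KO NSCs. Lower there were Sox10 (-1.70 ± 0.39, 0.00915), Sox9 (-0.75 ± 0.22, 0.0420) and the neural marker Sox2 (-0.49 ± 0.13, 0.0308). The part of these markers in the differences of the members and of the lists, at any state, was not tested.

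Among WT libraries, the day 7 library lowest in endoderm markers was also the lowest of its day in Krt8, Cldn6, Cldn7 and Crb3, and the same held for replicate 1 of WT day 9. Cdh1 at day 7 did not follow this order, at 38.9, 41.7 and 38.8 FPKM, while at day 9 it did, at 10.3, 17.6 and 16.7 FPKM. Among KO libraries of day 7, replicate 1 was the lowest in endoderm markers and the highest in Krt8, Cldn6, Cldn7, Crb3 and Cdh1. In KO day 9, replicate 2 had the most endoderm markers (34.1 FPKM) and the lowest Krt8 (32.5 FPKM), Cldn7 (1.11 FPKM), Cldn4 (4.47 FPKM) and Cdh1 (6.21 FPKM) of its group. In WT day 9 these genes were instead lowest in the library with the fewest endoderm markers. Crb3 was lowest in KO day 9 replicate 3 (1.02 FPKM), which had the fewest endoderm markers (8.69 FPKM), as in WT. Cldn6 was lowest in KO day 9 replicate 1 (6.33 FPKM). In mESCs endoderm markers summed to 1.72 to 3.60 FPKM in WT and 1.005 to 3.09 FPKM in KO, and none of the 5 tested was called there in limma (0 at an unadjusted p under 0.05).

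**Figure D4:**
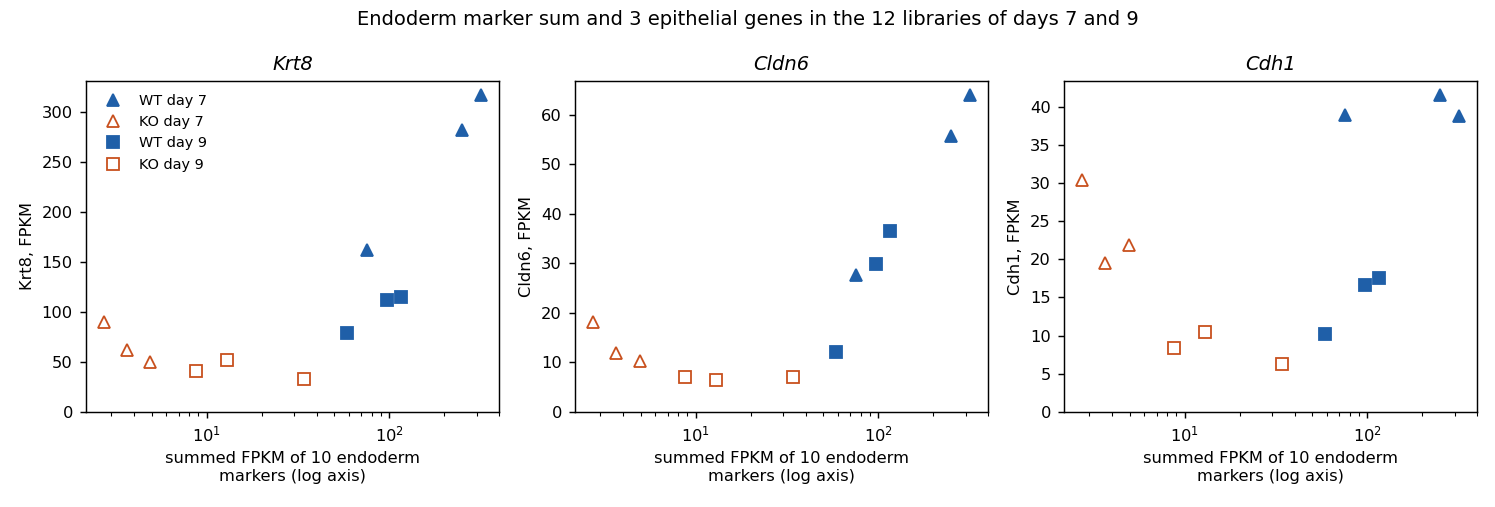
Each point is 1 of the 12 libraries of days 7 (triangles) and 9 (squares), WT filled and KO open, with the summed FPKM of 10 endoderm markers on a log axis and the FPKM of Krt8, Cldn6 or Cdh1 on the vertical axis, which starts at 0. WT libraries lie to the right, at 58.4 to 315.9 FPKM of markers, and hold the higher Krt8 values of each day, and KO libraries lie to the left, at 2.75 to 34.1 FPKM. Along the marker sum Krt8 climbs among the 3 WT libraries of each day and declines among the 3 KO libraries of day 7, and the KO library of day 9 with the most markers has the lowest Krt8 of its group, 32.5 FPKM.

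Other genes of the same junctions and of the transition were read from 7 lists, with the largest changes named by rule. In WT NSCs against mESCs, where 38.3% of all tested genes were lower and 36.9% higher, tight junction genes were mostly lower (9 of 11 lower, 1 higher), led by F11r, the junctional adhesion molecule A (log2 difference -3.70 ± 0.20), and Cldn3 (-2.78 ± 0.23). Of 13 polarity genes 7 were lower and 5 higher, and the largest falls were Llgl2, an epithelial basolateral polarity protein, from 43.4 to 53.9 FPKM in mESCs to 0 (-5.58 ± 0.16), and Pard6b (-2.91 ± 0.15). In the list of adherens junction, desmosome and keratin genes 11 of 16 were lower and 3 higher, with the desmosomal genes Dsg2 (-4.05 ± 0.17) and Pkp2 (-3.69 ± 0.22) in the lead. All named values in this paragraph passed the test (limma, adjusted p of at most 4.08e-10).

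All 10 regulators of epithelial state that were tested were lower in WT NSCs, with the transcription factor Elf3 (-6.21 ± 0.19) and the protease inhibitor Spint2 (-5.15 ± 0.21) first (limma, adjusted p = 1.53e-17 and 2.70e-15). Other cadherins went up with Cdh2: 8 of 10 were higher and 1 lower, with Cdh13 at 26.4 to 59.9 FPKM in WT NSCs against at most 0.0919 FPKM in WT mESCs (5.42 ± 0.23), while P-cadherin, Cdh3, fell with Cdh1 (-3.98 ± 0.20; adjusted p = 3.23e-15 and 9.37e-14). Among 6 factors of epithelial-mesenchymal transition 4 were higher and 1 lower, led by Tcf4 (4.04 ± 0.09) and Prrx1 (3.72 ± 0.22; adjusted p = 2.29e-19 and 1.21e-12). Of 12 mesenchymal genes 4 were higher and 2 lower, with the filament gene Vim up 3.83 ± 0.16 and the matrix gene Fn1 down 3.59 ± 0.22 on the log2 scale (adjusted p = 2.39e-15 and 2.95e-12), so the list did not move in 1 direction. As shares, these counts of the mesenchymal list stand near the 36.9% of all tested genes for higher and below the 38.3% for lower. Medians over the lists ran from -2.69 for the epithelial regulators to 2.92 for the other cadherins, beside -0.01 over all tested genes.

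KO and WT differed in fewer of these genes, and every call was lower in KO. In the list with adherens junctions, desmosomes and keratins 6 of 16 were lower at day 7, where 2.5% of all tested genes were, 2 at day 9 (4.11%), 1 in mESCs (0.413%) and 0 in NSCs (3.48%, with 2 of the list at an unadjusted p under 0.05). Over the alternatives, day 7 gave between 2 and 8 calls, day 9 between 1 and 4, and mESCs 0 or 1. Krt18, the filament partner of Krt8, read 8.81, 9.92 and 6.02 FPKM in WT mESCs against 3.25, 1.72 and 2.36 FPKM in KO (-1.43 ± 0.24, limma, adjusted p = 0.00564), and 118.6, 183.1 and 241.7 FPKM against 91.5, 49.1 and 57.2 FPKM at day 7 (-1.44 ± 0.24, adjusted p = 7.82e-04). The labels state no pairing of WT and KO libraries. With replicate number as a block the mESC call of Krt18 was just lost (limma, adjusted p = 0.0548). It was also lost with the 6 mESC libraries alone (adjusted p = 0.267), as was the day 7 call with the 6 libraries of that day (0.0836).

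Among tight junction genes, Cgn (cingulin) was lower in KO mESCs (-0.71 ± 0.14, limma, adjusted p = 0.0246) and Cgnl1 at day 9 (-0.99 ± 0.24, adjusted p = 0.013), 1 of 11 each time (between 0 and 3 at day 9 over the alternatives), with 0 at day 7 and in NSCs (2 and 0 with an unadjusted p under 0.05). Cgn lost its call without WT mESC replicate 1 (0.129), KO mESC replicate 2 (0.150) or KO mESC replicate 3 (0.0650), at a pseudocount of 0.1 (0.0750) and with the 6 mESC libraries alone (0.605). Cgnl1 lost its call without WT day 9 replicate 2 (0.124), WT day 9 replicate 3 (0.0647) or KO day 9 replicate 2 (0.0562). Of the polarity genes only Prkcz, an atypical protein kinase C, was called, in NSCs (-0.75 ± 0.19, adjusted p = 0.0162), and not without WT NSC replicate 3 (0.112), KO NSC replicate 1 (0.0611) or KO NSC replicate 2 (0.0725), nor with the 6 NSC libraries alone (0.3045). None of the 10 epithelial regulators was called in limma at any state (2, 2, 3 and 0 with an unadjusted p under 0.05 in mESCs, day 7, day 9 and NSCs).

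Some mesenchymal genes were lower as well: 3 of 12 at day 7 (2.5% of all tested genes), 3 at day 9 (4.11%), 2 in NSCs (3.48%) and 0 in mESCs (0.413%, with 3 of the list at an unadjusted p under 0.05). Over the alternatives, day 7 gave between 1 and 4 calls, day 9 between 2 and 4, and NSCs between 0 and 4. Col3a1 and Col1a1, fibrillar collagen genes, read 9.55, 28.8 and 30.5 FPKM and 3.96, 12.3 and 9.69 FPKM in WT day 9 libraries against at most 0.851 and 0.976 FPKM in KO (-3.75 ± 0.65 and -2.35 ± 0.32, limma, adjusted p = 9.10e-04 and 3.88e-05). Foxc2, a forkhead factor of mesoderm, was lower at day 7 and day 9 (-2.51 ± 0.41 and -1.91 ± 0.41, adjusted p = 5.29e-04 and 0.00413), 1 of 2 called among 6 transition factors at day 7 and the sole call at day 9 (between 1 and 3 on either day over the alternatives). Its day 7 call was lost with the 6 libraries of the day alone (0.0601). Among the other cadherins Cdh5, the endothelial cadherin, was lower at day 7 (-1.23 ± 0.23, adjusted p = 0.00168) and Cdh6 was 1 of 3 lower at day 9 (-1.40 ± 0.19, adjusted p = 4.63e-05; between 2 and 5 over the alternatives). The marker sums above moved with these genes too, and their part was not tested.

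**Figure D5:**
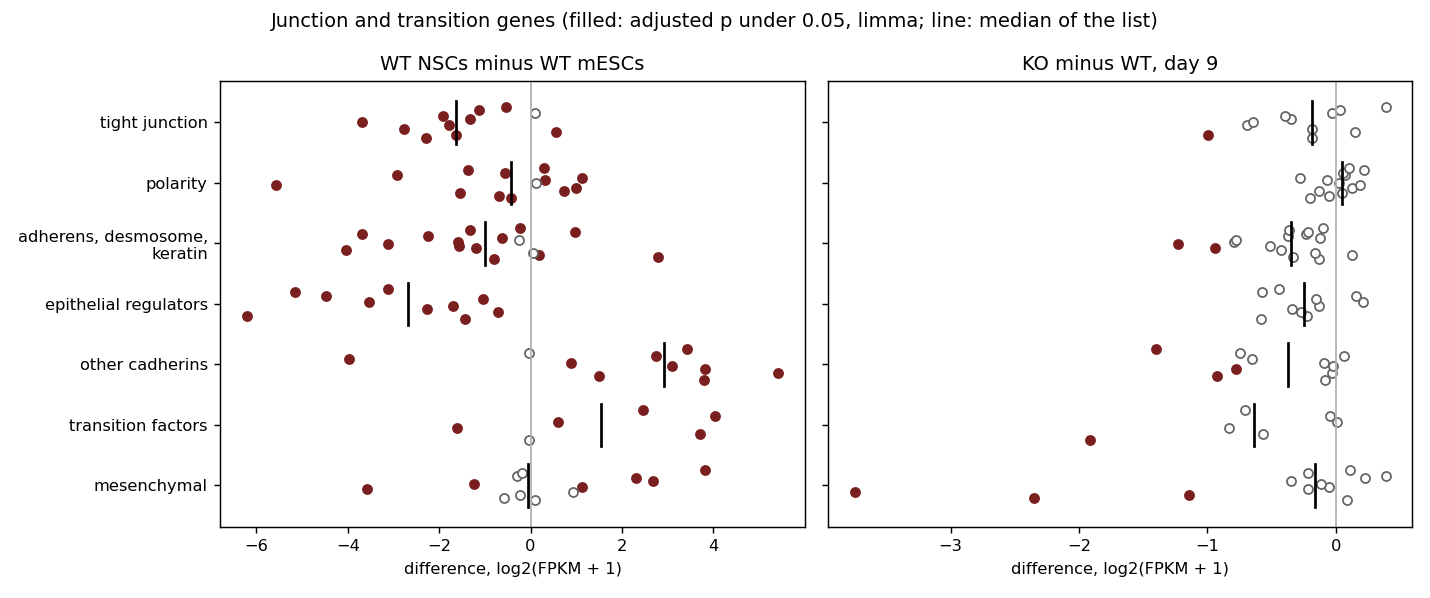
Points are the tested genes of 7 lists, placed by their log2(FPKM + 1) difference for WT NSCs minus WT mESCs (left) and KO minus WT at day 9 (right), filled where the adjusted p in limma is under 0.05, with a line at the median of the list. On the left the epithelial regulators are all below 0 and 8 of 10 other cadherins are filled above 0, and on the right all filled points are below 0.

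By the correlation of log2(FPKM + 1) over the 24 libraries, which fall into 4 states and are not independent points, the genes most like Cdh1 among 8948 were Rhpn2 (Pearson r 0.993), Plekhg3 (0.988), Etl4 (0.986), F11r (0.984) and Tfap2c (0.983). Those most like Cdh2 were Ivns1abp (0.992), Plekho1 (0.987), Bag2 (0.984), Zfp608 (0.982) and Zfp334 (0.981). Among the members themselves, Cdh1 went with Epcam (0.987) and against Zeb1 (-0.972), Cdh2 went with Zeb2 (0.98), and Krt8 went with Cldn7 (0.94) and less with Cdh1 (0.461).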

How the data were processed

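RNA was measured by poly(A) sequencing in 24 libraries, 3 for each of 2 genotypes in 4 states. Per the labels and the study's methods, the authors trimmed reads (Trim Galore 0.6.6), aligned them to mm9 with TopHat2 2.1.1 and deposited FPKM values per gene from Cuffdiff. The table holds 36 FPKM columns, and the 12 that match no WT or KO sample here were not used. The columns of confidence bounds and of status beside each FPKM were not used as values, save that 1 gene with a failed estimate was left out.

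Values were tested as log2(FPKM + 1) with limma 3.58.1 in R 4.3.3 (8 group means, trend and robust variance), over 12105 genes outside X and Y with a mean of at least 1 FPKM, with Benjamini-Hochberg adjustment and a threshold of 0.05. A fold is a ratio of mean FPKM, and a log2 difference on this scale understates the change of low genes. The fit was tested on simulated data. The members and lists were chosen with earlier results of these data known. From each list the text names the 2 largest changes of WT NSCs against mESCs and the 2 largest called KO differences among its genes, and for Cdh1 and Cdh2 the 5 most correlated genes.

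Same-numbered WT and KO libraries deviated together in mESCs (r 0.141 to 0.435) and NSCs (0.184 to 0.335) and not at days 7 and 9 (-0.107 to 0.096). The labels give replicate numbers but state no shared culture, and libraries of different number were not compared. Alternatives were a pseudocount of 0.1, no filter, 2 scalings, the compared groups alone, a replicate block and leaving out each library.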

Additional observations from a re-analysis of the deposited data

Results flagged for a closer look

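The KO difference of Epcam, on the log2(FPKM + 1) scale, was called as changed between states in the main fit: it was 0.75 ± 0.18 (SE) in mESCs and -0.20 ± 0.18 at day 9, so the day 9 difference minus the mESC difference was -0.95 ± 0.26 (limma, adjusted p = 0.0474). All 3 KO mESC libraries were higher than all 3 WT mESC libraries, and at day 9 the genotypes overlapped. The difference between states was tested as an interaction and passed narrowly. Over the alternatives its value ran from -1.18 to -0.71 and its adjusted p from 0.00797 to 0.324. The call was lost in most of them, among these a replicate block (limma, adjusted p = 0.0686) and median ratio scaling (0.0542).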

How the results depend on the processing

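Single-gene differences gave 1020 values under other settings, of which 979 kept direction and side of the threshold, 33 lost and 8 gained a call and 0 reversed, and 1200 with 1 library left out (1132, 58, 10 and 0). The counts of members called in KO against WT ran from 1 to 4 at day 7 and from 3 to 7 at day 9 with 1 library left out. In KO, day 9 against day 7 ran from 5 to 9. The interaction ran from 0 to 1 at day 7 and from 0 to 2 at day 9, where it also gave 0 at a pseudocount of 0.1, 2 at the same sum of FPKM, 0 under median ratio scaling and 0 with the compared groups alone. WT day 9 against day 7 gave 4 at a pseudocount of 0.1, not 7. Group means of members at the same sum were 0.82 to 1.19 times those deposited, and 15 of 63 moved by over 1 SD. Under the same sum, chosen for this count after seeing the data, 2 members in NSCs did not overlap, not 1. The cause of this change was not tested. Among all tested genes 16.7% did not overlap in NSCs with values as deposited, and the share at the same sum was not counted. With a replicate block, KO and WT differed in 2 members at day 7, 7 at day 9 and 0 in mESCs and in NSCs. In mESCs and NSCs, where same-numbered libraries deviated together, the block changed no call of a member. Over all genes, calls in mESCs were 98 with the block and 64 without, in NSCs 1145 and 729, at day 7 641 and 446, and at day 9 1155 and 809. Low reads limit Cldn7, Crb3 and every epithelial member in NSCs.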
